A study of Drosophila melanogaster with 12 samples.

Results

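The 169 genes described here are Drosophila melanogaster genes known in the deposited tables by a CG number alone, and their RNA was lower after depletion of barc in both of the study's systems. They were taken from 2882 CG-numbered genes that could enter, out of 7761 CG-numbered rows and 14210 rows in all. A gene could enter if its value carried the status OK in all 12 libraries and averaged at least 1 FPKM (fragments per kilobase of transcript, relative to the mapped fragments of the library) in each system. A member had a mean log2(FPKM + 1) at least 0.4 lower in the libraries depleted of barc than in their controls, in neuroblasts and in S2 cells alike. CG11985 and CG7637 were left out by name. CG11985 had met the criteria. Members were thus selected on the mean changes of these 2 contrasts.

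The gene barc (barricade) encodes the fly counterpart of the human protein Tat-SF1, which is known from transcription elongation and from splicing with the U2 snRNP. The U2 snRNP is the RNA and protein particle that recognises the branch point of an intron. Neuroblasts are the stem cells of the fly brain. S2 cells are a line of embryonic origin with features of blood cells. A CG number is the identifier given to a predicted gene, and many such genes carry no other name because little was known of them when they were annotated.

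The 12 libraries of polyadenylated RNA fell into 4 groups. Larvae with dicer2, the driver asense-Gal4 and the marker UAS-CD8::GFP were reared at 29 °C. Type I neuroblasts were sorted from their brains by fluorescence late in the third instar, and both neuroblast groups carried these transgenes. The barc RNAi neuroblasts (2 libraries) also carried the RNAi line TID:107013, and the control neuroblasts (2 libraries), which the labels call wild type, the empty landing site VIE-260B (TID:60100). The same driver switched on RNAi and GFP, so the cells that were depleted are those that were sorted. S2 cells, grown in Schneider's medium with 10% serum, received double-stranded RNA for 7 days. It was directed against barc (dsbarc, 4 libraries) or against mCherry (dsmCherry, 4 libraries), which the fly genome lacks. Neuroblast libraries were prepared by hand with one kit and S2 libraries by a robot with another.

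Depth implied by the deposited confidence intervals ran between 42.0 and 48.7 M fragments (M stands for 1000000) in barc RNAi neuroblasts and between 27.1 and 30.4 M in control neuroblasts. It ran between 14.6 and 18.3 M in dsbarc cells and between 18.8 and 28.6 M in dsmCherry cells. A median member had between 246 and 1154 fragments per library. In 4 members a library held fewer than 10 fragments, with 3 in CG4186 as the lowest. The summed FPKM of the listed neuroblast markers was 1367 to 1382 in barc RNAi and 1476 to 1509 in control neuroblasts. In S2 cells the sum was 11.4 to 35.3 in dsbarc and 2.03 to 2.26 in dsmCherry libraries. Most of it came from insc, with 22.8 FPKM on average in dsbarc and 1.80 FPKM in dsmCherry cells. The listed glial markers summed to 121 to 135 FPKM in barc RNAi and 199 to 204 FPKM in control neuroblasts. Neuronal markers summed to 42.0 to 42.1 FPKM in barc RNAi and 30.6 to 32.6 FPKM in control neuroblasts. That glial sum was lower mainly through Eaat1 (38.9 against 76.0 FPKM on average) and nrv2 (88.6 against 124 FPKM). Of the other glial markers, gcm and moody were lower and repo and Gs2 higher, all under 1 FPKM in neuroblasts. The neuronal sum was higher mainly through elav (28.9 against 23.0 FPKM) and fne (12.2 against 7.81 FPKM). Rbp9 was higher and brp and Syt1 lower, all under 1 FPKM there. In S2 cells the glial markers summed to 77.2 to 87.4 FPKM in dsbarc and 47.2 to 70.6 FPKM in dsmCherry libraries. Neuronal markers there summed to 17.3 to 20.3 FPKM in dsbarc and 11.1 to 16.6 FPKM in dsmCherry libraries. Hemocyte markers there summed to 422 to 496 FPKM in dsbarc and 353 to 484 FPKM in dsmCherry libraries. The S2 glial sum was higher after dsbarc mainly through Gs2 (29.7 against 7.62 FPKM on average), the neuronal sum through brp (6.13 against 1.69 FPKM). The hemocyte markers Hml (2.18 against 3.24 FPKM) and Pxn (2.20 against 4.97 FPKM) were lower after dsbarc. The others in the tables were higher, and crq (345 against 315 FPKM) made up most of that sum. Of the glial markers, repo and gcm stayed under 0.4 FPKM on average in every group, and the part of such cells in the members' changes was not tested. In bulk samples such as these, fewer cells of a type and less RNA per cell cannot be told apart.

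Expression of barc itself was 15.1 and 17.9 FPKM in barc RNAi neuroblasts, against 86.4 and 94.0 FPKM in control neuroblasts. In S2 cells it was 7.32, 4.27, 3.02 and 3.22 FPKM in dsbarc replicates 1 to 4, against 21.1, 23.9, 20.9 and 22.3 FPKM in dsmCherry replicates 1 to 4. Every depleted library lay under every control of its system. Since rgn and CG33288 overlap barc, fragments from either may be counted with it. A list of 13 further U2 snRNP proteins and partners was described beside it. In neuroblasts 4 of the 13 were higher and 3 lower by limma at an adjusted p under 0.05, where 19.1% and 23.8% of all genes tested were called higher and lower. In S2 cells 1 was called higher and 0 lower by limma (2 and 1 at an unadjusted p under 0.05), where 11.5% and 15.2% of all genes were called. CG13900, a protein of the SF3b complex, had the highest changes of the 13, 0.93 in neuroblasts and 0.58 in S2 cells on the log2(FPKM + 1) scale. CG13298 had the lowest, -0.27 and -0.33. The median of the 13 was 0.001 in neuroblasts and -0.05 in S2 cells, against -0.02 and -0.06 for all genes tested.

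The rule chose the members by both of these contrasts. Their changes are therefore given as descriptions, without tests, and every change in what follows is a difference of mean log2(FPKM + 1), depleted minus control. Adding 1 makes the change of a low gene look smaller than it was. Members had a median change of -0.59 in neuroblasts (range -2.38 to -0.40) and of -0.78 in S2 cells (range -2.31 to -0.41). Over all 2882 genes that could enter, the medians were -0.02 and -0.09. The change was larger in S2 cells for 123 members and larger in neuroblasts for 46. A change of -1 or lower was reached by 24 members in neuroblasts, by 50 in S2 cells and by 13 in both systems.

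Of the genes that could enter, 308 were at or under the limit of -0.4 in neuroblasts and 677 in S2 cells. The 170 that met it in both systems, CG11985 included, were 55.2% of the neuroblast list and 25.1% of the S2 list. Across the 2882 genes, changes in the 2 systems had a Pearson r of 0.434 and a Spearman rho of 0.406. The points of that comparison share libraries, and genes are not independent replicates.

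**Figure D1:**
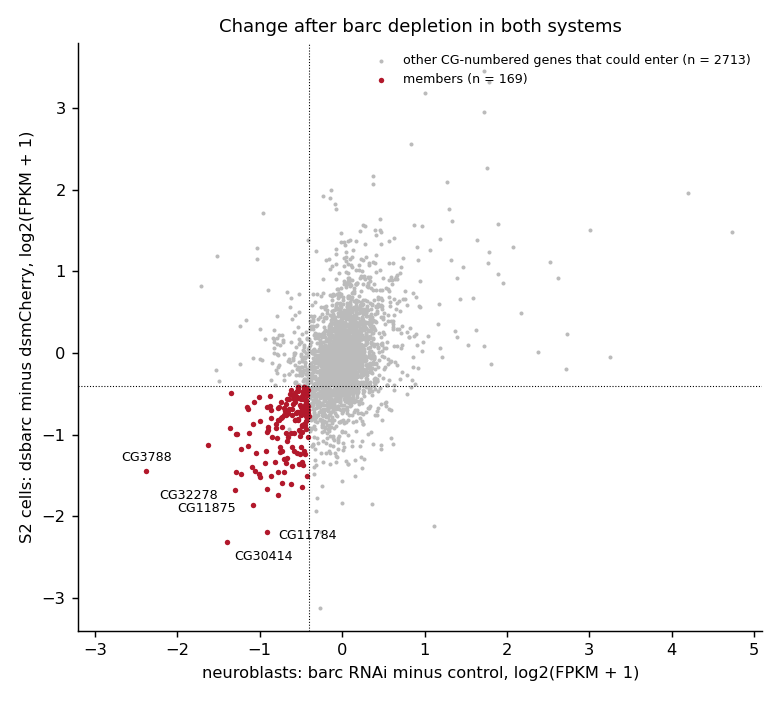
Change in log2(FPKM + 1) of each CG-numbered gene that could enter, in neuroblasts (horizontal axis, barc RNAi minus control) and in S2 cells (vertical axis, dsbarc minus dsmCherry). Red points are the 169 members, grey points the other 2713 genes, and dotted lines mark -0.4, and CG3788 and CG30414 lie farthest from the grey cloud.

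All 169 members had a lower value in both barc RNAi neuroblast libraries than in both control neuroblast libraries, a pattern that 39.9% of the 6732 genes tested there shared. In S2 cells, 129 members had all 4 dsbarc libraries under all 4 dsmCherry libraries, against 18.0% of 7603 genes tested. The other 40 overlapped between the groups. By limma, 167 members were called lower in neuroblasts, where 23.8% of genes were called lower, and 125 in S2 cells, where 15.2% were. Nothing is read from these counts, since the same contrasts chose the members. The 2 members not called in neuroblasts, named after their values were seen, were CG41378 (change -0.41) and CG34213 (change -0.43). In 1 limma fit over all 4 groups, 26 members were called lower in neuroblasts, where 1.42% of all genes were. Within S2 replicates 3 and 4 alone, 63 were called lower, where 6.20% of all genes were. Within replicates 1 and 2 alone, 166 were, where 45.1% of all genes were called lower and 73.1% in either direction.

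CG3788 (FBgn0034800, arm 2R, 18819558 to 18821208) was the member with the lowest sum of changes. Coordinates here are those of the deposited tables, which follow an earlier genome build that the sources used here do not name. Its level was 9.32 and 11.8 FPKM in barc RNAi neuroblasts, against 58.6 and 58.9 FPKM in control neuroblasts. It was 1.28, 1.07, 3.00 and 3.14 FPKM in dsbarc cells, against 6.83, 6.79, 8.0 and 6.91 FPKM in dsmCherry cells. The groups did not overlap in either system, and the mean after depletion was 18.0% of the control mean in neuroblasts and 29.8% in S2 cells. Its log2 change was -2.38 in neuroblasts, the lowest of all members, and -1.45 in S2 cells, and the authors' deposited table gave -2.39 and -1.68. The gene overlaps CG42678.

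CG30414 (FBgn0050414, arm 2R, 19271166 to 19272978) had the lowest change of all members in S2 cells, -2.31, and a change of -1.40 in neuroblasts. It was at 0.373 and 1.07 FPKM in barc RNAi neuroblasts, against 3.37 and 3.51 FPKM in control neuroblasts. In S2 cells it was at 0.727, 1.15, 3.79 and 4.27 FPKM after dsbarc, against 10.0, 11.6, 22.3 and 16.7 FPKM after dsmCherry. All depleted libraries were under all controls, and replicates 3 and 4 lay above replicates 1 and 2 in both S2 groups. The library with the fewest fragments for this gene held 13. Its neuroblast value depends on the added 1: with 0.1 added instead, the change was -2.25.

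CG11784 (FBgn0033381, arm 2R, 5009630 to 5010814), named GstE13 in RefSeq, belongs to the glutathione S-transferases, enzymes that join glutathione to reactive compounds. Its level was 9.78 and 11.9 FPKM in barc RNAi neuroblasts, against 22.1 and 20.3 FPKM in control neuroblasts. It was 7.53, 8.67, 22.0 and 18.5 FPKM in dsbarc cells, against 61.0, 62.5, 74.5 and 52.8 FPKM in dsmCherry cells. The mean was 51.2% of the control mean in neuroblasts and 22.6% in S2 cells, without overlap. It overlaps CG18659, and related glutathione S-transferase genes could share its fragments, so its level is uncertain.

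CG32278 (FBgn0052278, arm 3L, 3169287 to 3171767) stood at 21.4 and 20.7 FPKM in barc RNAi neuroblasts, against 52.0 and 54.7 FPKM in control neuroblasts. In S2 cells its values were 5.41, 5.29, 12.5 and 13.5 FPKM after dsbarc, against 29.4, 27.8, 30.4 and 28.7 FPKM after dsmCherry. Its dsmCherry libraries lay close together and its dsbarc libraries fell into 2 pairs. The changes were -1.30 and -1.68. The gene overlaps CG32281 and CG14963.

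CG11875 (FBgn0039301, arm 3R, 21073600 to 21074822) is Nup37, a protein of the nuclear pore. Its level was 41.9 and 46.0 FPKM in barc RNAi neuroblasts, against 94.4 and 94.0 FPKM in control neuroblasts, a mean at 46.6% of the control mean. It was 3.15, 3.68, 5.53 and 5.71 FPKM in dsbarc cells, against 19.8, 21.9, 20.04 and 13.8 FPKM in dsmCherry cells, a mean at 23.9%. Groups were separate in both systems, and the gene overlaps no other row of the tables.

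CG13585 (FBgn0035020, arm 2R, 20419123 to 20420915) was the member with the second lowest neuroblast change, -1.62. It was at 2.99 and 4.50 FPKM in barc RNAi neuroblasts, against 13.7 and 13.2 FPKM in control neuroblasts. In S2 cells it was at 36.9, 39.3, 36.1 and 40.0 FPKM after dsbarc, against 85.7, 93.1, 90.4 and 70.5 FPKM after dsmCherry. Unlike CG32278, its dsbarc libraries agreed within 4 FPKM, with -1.05 as the change within replicates 3 and 4 and -1.21 as that within replicates 1 and 2.

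CG9154 (FBgn0031777, arm 2L, 6069790 to 6070646) had 4.52 and 7.77 FPKM in barc RNAi neuroblasts, against 15.7 and 16.3 FPKM in control neuroblasts. It had 5.66, 6.52, 7.71 and 6.86 FPKM in dsbarc cells, against 20.3, 20.8, 22.0 and 17.5 FPKM in dsmCherry cells. Its mean was 38.5% of the control mean in neuroblasts and 33.2% in S2 cells, close to the same share in each. It overlaps CG13993.

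CG33332 (FBgn0067629, arm 3R, 10712202 to 10714868) was a low member, at 1.90 and 2.85 FPKM in barc RNAi neuroblasts, against 6.35 and 7.31 FPKM in control neuroblasts. In S2 cells it had 0.906, 1.10, 1.61 and 1.77 FPKM after dsbarc, against 6.81, 6.01, 4.68 and 4.66 FPKM after dsmCherry. The authors' deposited table gave lower values, -1.54 and -2.03, than the -1.23 and -1.48 on the log2(FPKM + 1) scale. It overlaps CG33331 and CycC.

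The members with the highest control level in each system were CG2852 and CG2789. Their changes in neuroblasts were -0.88 and -0.77, lower than the median of all members at -0.59. In S2 cells they were -0.53 and -0.66, against a median of -0.78. CG2852 (FBgn0034753, arm 2R, 18532448 to 18533851) had the highest level in control neuroblasts. It was at 318 and 376 FPKM in barc RNAi neuroblasts, against 638 and 632 FPKM in control neuroblasts. In S2 cells its values were 368, 365, 638 and 597 FPKM after dsbarc, against 724, 734, 751 and 552 FPKM after dsmCherry. There the groups overlapped, since dsmCherry replicate 4 lay under dsbarc replicates 3 and 4. Its S2 change of -0.53 was -0.06 within replicates 3 and 4 and -0.99 within replicates 1 and 2.

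CG2789 (FBgn0031263, arm 2L, 559611 to 560523) is Tspo, a protein of the outer mitochondrial membrane, and had the highest level in dsmCherry cells. It was at 63.5 and 65.3 FPKM in barc RNAi neuroblasts, against 112 and 109 FPKM in control neuroblasts. It was at 580, 577, 594 and 562 FPKM in dsbarc cells, against 945, 1060, 985 and 702 FPKM in dsmCherry cells. All depleted libraries were under all controls, with means at 58.3% and 62.7% of the control means. It overlaps rempA.

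**Figure D2:**
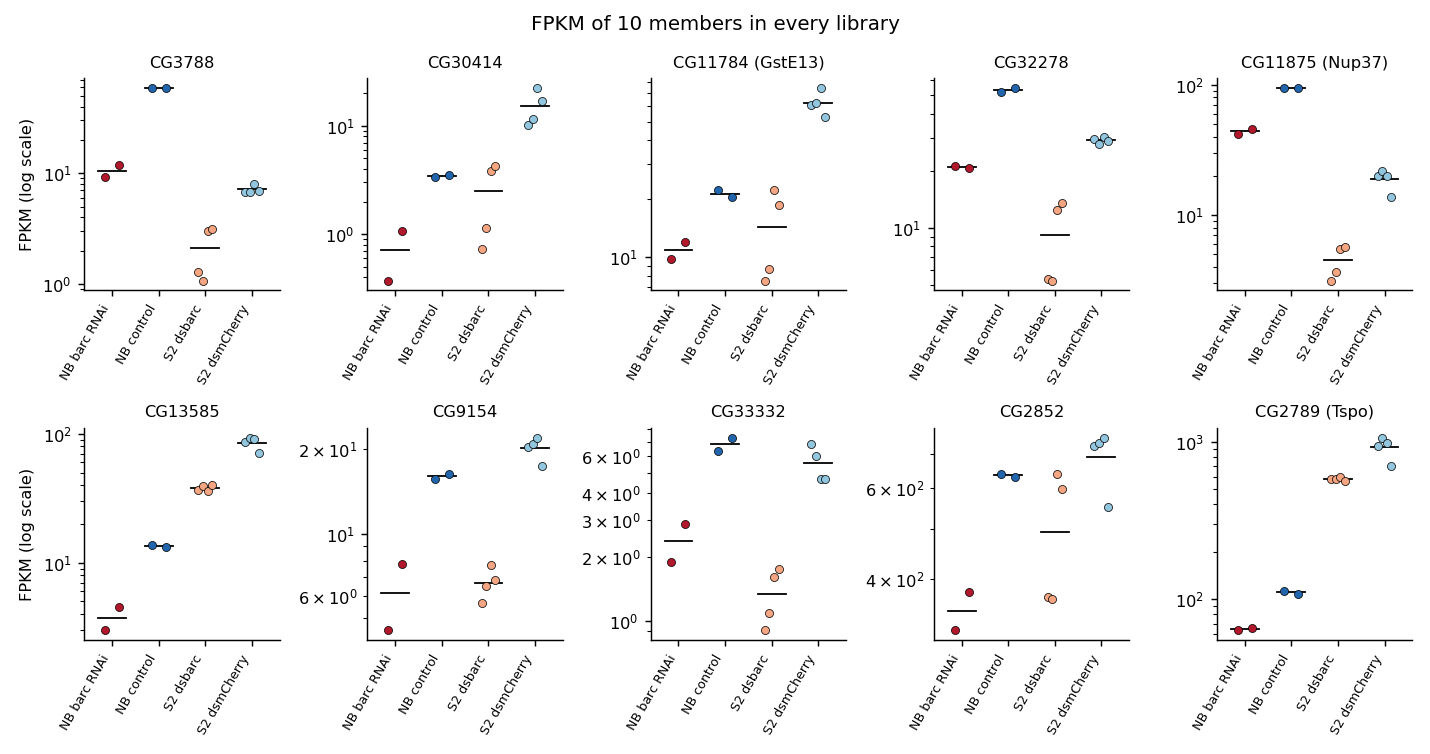
FPKM of 10 members in every library, on a logarithmic vertical axis that differs between panels; points are libraries, drawn left to right by replicate number, and lines are group means. Depleted libraries lie under controls of the same system in each panel except for CG2852 in S2 cells, where dsmCherry replicate 4 (552 FPKM) is under dsbarc replicates 3 and 4.

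At the limit, the members just inside were CG2126 (-0.40 in neuroblasts and -0.77 in S2 cells), CG31038 (-0.54 and -0.41) and CG6218 (-0.41 and -0.73). The genes just outside were CG8043 (-0.42 and -0.40), CG11158 (-0.40 and -0.79) and CG2614 (-0.43 and -0.40). To 2 decimals some of these equal the limit, so membership near the limit rests on small differences.

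RefSeq gives 53 of the 169 members a symbol other than the CG number, and 55 members could be given a role, 42 of them from that symbol and 13 from a synonym that RefSeq lists. The other 11 with a symbol were given none. Those 55 were sorted into 6 groups by hand with the results known, so the groups are a way of reading the list and carry no test. In all, 114 members are given no role here.

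The largest group held 15 members that act in or supply mitochondria, with a median change of -0.62 in neuroblasts and -0.88 in S2 cells. It held ND-30 (CG12079, -0.73 and -0.91) and ND-18 (CG12203, -0.48 and -0.96), subunits of complex I of the respiratory chain. Coq4 (CG32174, -0.49 and -0.88) serves ubiquinone synthesis, and ATPIF1 (CG13551, -0.62 and -0.98) encodes an inhibitor of the ATP synthase. Minos1b (CG41128, -1.05 and -1.22), of the complex that shapes the inner membrane, was the lowest of the group in both systems. Mpc1 (CG14290, -0.48 and -0.46), the mitochondrial pyruvate carrier, and Tom6 (CG34200, -0.64 and -0.68), of the outer membrane import pore, changed by about the same amount in each. The larger change was in S2 cells for 13 of the 15.

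Members of the endoplasmic reticulum and Golgi numbered 11, with medians of -0.61 in neuroblasts and -0.76 in S2 cells. Among those that serve glycosylation were xit (CG4542, -0.94 and -1.35), a glucosyltransferase, Gmppa (CG8207, -0.76 and -1.21), related to the enzyme that makes GDP-mannose, and Dpm3 (CG33977, -0.87 and -0.79), of the dolichol-phosphate mannose synthase. EMC4 (CG11137, -0.60 and -0.63) and Wrb (CG32022, -0.86 and -0.70) help insert membrane proteins. Rint1 (CG8605, -0.53 and -0.81), Rgp1 (CG1116, -0.70 and -0.76), Yif1 (CG5484, -0.47 and -0.50) and Sys1 (CG11753, -0.45 and -0.64) serve vesicle traffic.

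Another 10 members act on transfer RNA or translation, with medians of -0.57 and -0.69. Pstk (CG12788, -0.56 and -0.73) and SecS (CG1427, -0.66 and -1.08) catalyse successive steps in charging the transfer RNA of selenocysteine. Trm1 (CG6388, -0.42 and -0.65), METTL1 (CG4045, -0.74 and -0.60) and METTL6 (CG34195, -0.59 and -0.54) methylate transfer RNA, and Urm1 (CG33276, -1.13 and -0.98) takes part in its thiolation. Dph3 (CG14701, -0.57 and -0.82) serves the modification of elongation factor eEF2, and HemK2 (CG9960, -0.47 and -0.48) methylates a release factor.

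Protein folding and turnover was the role of 5 members, and here the larger median was in neuroblasts (-0.77, against -0.56 in S2 cells). Rchy1 (CG16947), a ubiquitin ligase, had -1.35 in neuroblasts and -0.49 in S2 cells. PSMG1 (CG2046, -0.77 and -0.82) helps assemble the proteasome and Tbca (CG1890, -0.54 and -0.43) folds tubulin. The 4 members with a role in the nucleus or in RNA metabolism were Nup37, ski3 (CG8777, -0.61 and -0.68), which works with the RNA exosome, Nemp (CG9723, -0.51 and -0.63), of the nuclear envelope, and Hexim (CG3508, -0.46 and -0.45), an inhibitor of the elongation kinase P-TEFb. Other enzymes and lipid factors made up the remaining 10, with medians of -0.46 and -0.80, among them spidey (CG1444, -0.46 and -1.20) of fatty acid elongation and Hgsnat (CG6903, -0.55 and -1.22) of heparan sulphate breakdown.

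**Figure D3:**
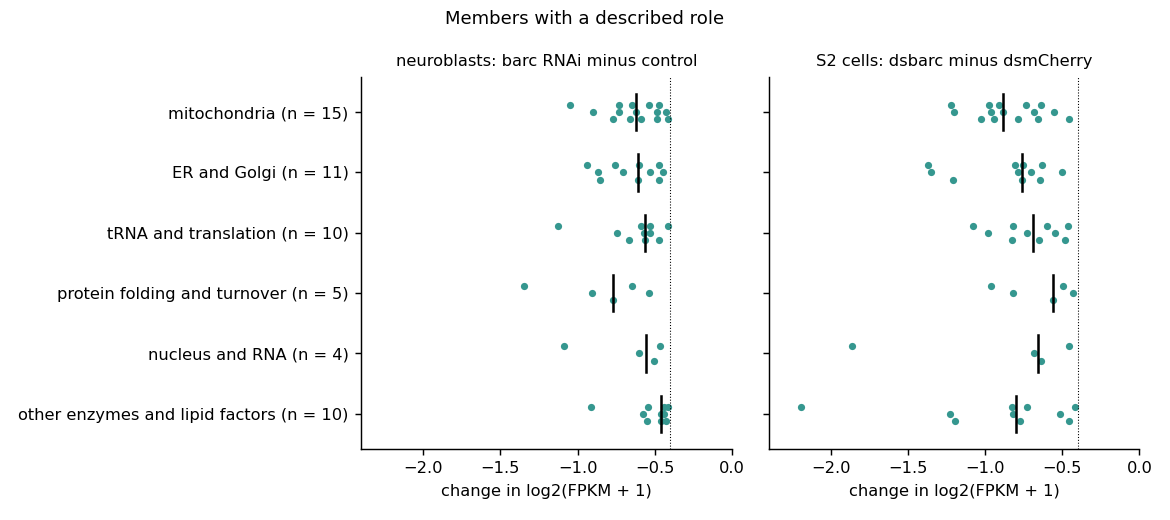
Change in log2(FPKM + 1) of the 55 members with a role, in neuroblasts (left, barc RNAi minus control) and in S2 cells (right, dsbarc minus dsmCherry); points are genes, vertical bars group medians and the dotted line -0.4. Medians lie between -0.77 and -0.46 in neuroblasts and between -0.88 and -0.56 in S2 cells.

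In the sample descriptions the S2 replicates 1 and 2 of either treatment carry the first number 1, and replicates 3 and 4 the first number 2. The labels do not say what it means. The rule used the mean over all 4 replicates. Changes spread more widely in replicates 1 and 2 than in replicates 3 and 4: over all 2882 genes that could enter, the quartiles were -0.23 and 0.24 in replicates 3 and 4 and -0.58 and 0.20 in replicates 1 and 2. A low mean over both pairs therefore favours genes that are low in replicates 1 and 2, so the difference between the pairs is not independent of the rule. It is given for the members as a description. The limma calls and the order by p that follow are no test of the members, and nothing about the members is read from their counts. The median change of the members was -0.60 within replicates 3 and 4, and -1.03 within replicates 1 and 2. The change was less negative in replicates 3 and 4 for 147 of the 169 members and for 68.1% of the 2882 genes that could enter. Within replicates 3 and 4, 164 members were lower after dsbarc, and within replicates 1 and 2 all 169 were. Those higher in replicates 3 and 4, 5 members named after their values were seen, were CG42394 (0.24), CG9752 (0.13), CG5885 (0.07), CG9344 (0.06) and CG32276 (0.01).

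A limma interaction of treatment and first number called 55 members, 54 with a higher and 1 with a lower effect in replicates 3 and 4 than in replicates 1 and 2. Over all 7603 genes tested, 15.9% were called higher and 6.47% lower. The median difference was 0.49 over members and 0.17 over all genes. After quantile normalisation the median of all genes moved by -0.17, and 34 members were called higher and 3 lower, where 10.4% and 9.25% of all genes were. The count of members called was 17, 24, 15 and 21 without dsbarc replicates 1, 2, 3 and 4, where 8.54%, 10.7%, 8.80% and 9.98% of all genes were called. It was 26, 18, 112 and 71 without dsmCherry replicates 1, 2, 3 and 4, where 12.1%, 9.25%, 54.2% and 41.7% of all genes were called. The 1 member called lower was CG10026, also named after its values were seen, with a change of -0.85 within replicates 3 and 4 and of -0.05 within replicates 1 and 2 (difference -0.80, SE 0.173).

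CG42394 (FBgn0259740, arm 3R, 6675545 to 6677510) had the lowest p of the members in this fit, with a difference of 2.22 (SE 0.171). It was at 6.40, 4.86, 97.7 and 95.1 FPKM in dsbarc cells, against 24.8, 25.2, 81.0 and 82.0 FPKM in dsmCherry cells. Its level was thus higher in replicates 3 and 4 under both treatments, and the dsbarc libraries lay above the dsmCherry libraries in that pair and under them in replicates 1 and 2. In neuroblasts it was at 11.4 and 13.4 FPKM after barc RNAi, against 24.98 and 29.7 FPKM in controls. Its S2 change over both pairs was -0.87 (SE 1.01), so the spread was wider than the change. By mean FPKM it was nearly unchanged in S2 cells, with a dsbarc mean of 51.0 FPKM, 95.8% of the dsmCherry mean. The authors' deposited table gave -0.10 for S2 cells and -0.68 for neuroblasts. It overlaps CG6567.

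In the other members named from this fit the dsbarc levels differed more between the pairs than the dsmCherry levels did. CG17896 (FBgn0023537, arm X, 384820 to 387527) had 14.2, 15.7, 42.1 and 45.3 FPKM in dsbarc cells, against 87.3, 85.7, 80.2 and 68.0 FPKM in dsmCherry cells (difference 1.71, SE 0.157). CG42514 (FBgn0260388, arm 3L, 16484948 to 16489318) had 6.24, 7.01, 19.2 and 19.5 FPKM, against 34.3, 32.3, 30.3 and 25.3 FPKM in dsmCherry cells (1.68, SE 0.166). In both genes each dsbarc library stayed under every dsmCherry library.

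CG12768 (FBgn0037206, arm 3L, 22903591 to 22916632) had 7.53, 9.82, 22.3 and 22.2 FPKM in dsbarc cells, against 38.8, 37.2, 28.7 and 32.8 FPKM in dsmCherry cells (difference 1.57, SE 0.188). CG2678 (FBgn0014931, arm 3R, 3739579 to 3742272) is kipf, a zinc-finger protein known from small RNA source loci of the ovary. It had 4.00, 3.84, 8.06 and 8.67 FPKM in dsbarc cells, against 10.0, 10.3, 7.81 and 9.26 FPKM in dsmCherry cells (1.16, SE 0.163), and its groups overlapped. For CG32278, whose values stand above, the difference was 1.09 (SE 0.139).

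For barc itself, which the rule did not choose, the change within replicates 3 and 4 was -2.46, and within replicates 1 and 2 it was -1.82, a difference of -0.63 (SE 0.282, limma adjusted p = 0.14) that missed the threshold. Whether the first number stands for a batch, a culture or a time cannot be told from the labels.

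**Figure D4:**
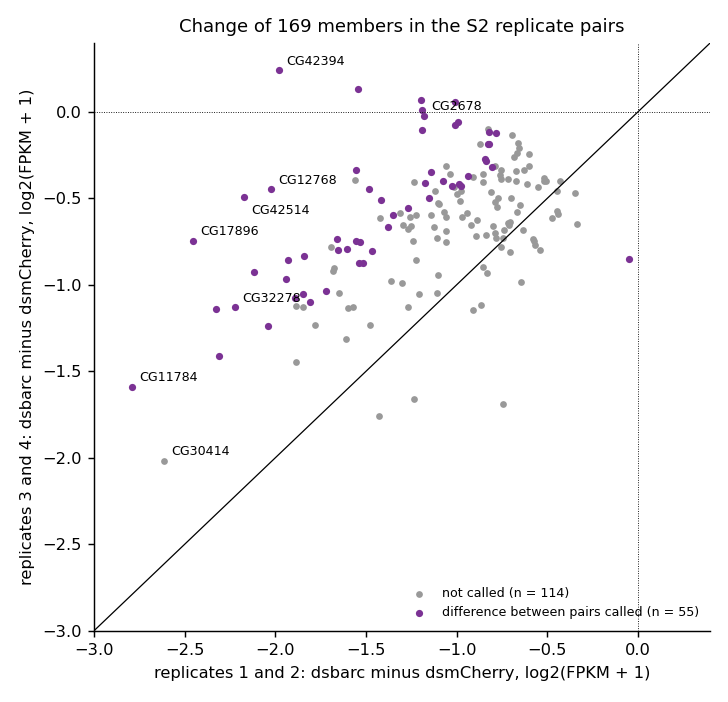
Change in log2(FPKM + 1), dsbarc minus dsmCherry, of the 169 members in S2 replicates 3 and 4 (vertical axis) and in replicates 1 and 2 (horizontal axis), with the line of equal change. Most points lie above the line, 147 of 169, a side that the choice of members favours, and the 55 members called by the limma interaction are purple.

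Apart from treatment, limma called 28 members higher and 10 lower in replicates 3 and 4 than in replicates 1 and 2, where 13.5% of all genes were called higher and 13.0% lower. With values rescaled to a common sum per library (TPM), 22 members were higher and 15 lower, where 10.8% and 21.1% of all genes were called, and the median of all genes moved by -0.11. The median of the members was 0.14 above that of all genes on the FPKM scale and 0.15 above it on the rescaled one. This fit holds the dsbarc libraries, and the rule favours genes that are low in dsbarc replicates 1 and 2. The difference is therefore not independent of the rule, and nothing about the members is read from it.

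Control levels of the members were spread over both systems. The median member had 28.6 FPKM in control neuroblasts and 33.9 FPKM in dsmCherry cells. For the other 2713 genes that could enter, these medians were 20.9 and 22.2 FPKM. After depletion the median member had 17.1 FPKM in barc RNAi neuroblasts and 17.9 FPKM in dsbarc cells. The rule kept genes with control values above depleted ones and so favours high control levels. Nothing about the members is read from this difference. At least 10 FPKM was reached by 131 members in control neuroblasts and by 142 in dsmCherry cells, and by 123 in both. The level was higher in control neuroblasts for 73 members and higher in dsmCherry cells for 96. By limma, 47 members were higher in control neuroblasts than in dsmCherry cells and 68 lower, where 37.5% and 40.6% of 7556 genes tested were called. After quantile normalisation 55 members were higher and 64 lower, where 42.3% and 33.2% of all genes were called, and the median of all genes moved by 0.24. Library kit and system cannot be told apart in this comparison, and the rule used both control groups.

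Members at the ends of this range, named after their values were seen, were CG15083, with 2.75 FPKM on average in control neuroblasts and 398 FPKM in dsmCherry cells, and CG6695, with 310 and 29.1 FPKM. CG15083 changed by -0.78 in neuroblasts and -1.73 in S2 cells, and CG6695 by -0.54 and -0.41.

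Structure was taken from the Release 6 annotation by gene identifier, which matched 166 members and 2622 other genes that could enter. It did not enter the rule. Members had shorter transcripts, with a median of 1282.5 bases for the longest annotated transcript, against 1820 bases for the others. Both sets had a median of 2 introns. Genes without an intron made up 3.01% of members (5 of 166) and 11.9% of the others (312 of 2622). Every intron was at most 100 bases long in 48.8% of members and in 40.3% of the others, and an intron over 1000 bases was found in 16.3% and 17.0%.

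The genes were sorted by transcript length into 4 classes of 697 genes. The share that were members was 10.5% in the shortest class (251 to 1175 bases), 7.03% in the second, 4.16% in the third and 2.15% in the longest. Among genes with an intron it was 12.5%, 8.04%, 4.66% and 1.90% over the classes in that order. Among genes without one it was 1.55% (2 of 129), 1.00% (1 of 100) and 0 of 75 in the first 3 classes, and 2 of 13 in the longest, a class that holds too few genes to be read. Over all lengths, members were 6.92% of genes with 1 intron, 8.75% of those with 2, 6.07% of those with 3 and 5.01% of those with 4 or more, against 1.58% of those with none. These shares are descriptions, and no test was made of them.

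The 5 members without an intron were CG13907 (-0.49 in neuroblasts and -1.64 in S2 cells), CG42806 (-0.60 and -1.38), CG32163 (-0.48 and -0.70), CG7564 (-0.59 and -0.56) and CG9960 (-0.47 and -0.48). Length moved with the change of all genes that could enter, not of members alone: the median S2 change was -0.23 in the shortest class and 0.10 in the longest. In neuroblasts these medians were -0.08 and 0.04. The authors' deposited tables, made from counts rather than FPKM by their columns, gave -0.21 and 0.15 for S2 cells and -0.04 and 0.06 for neuroblasts. The part that transcript length or its treatment in FPKM had in the choice of members was not tested.

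**Figure D5:**
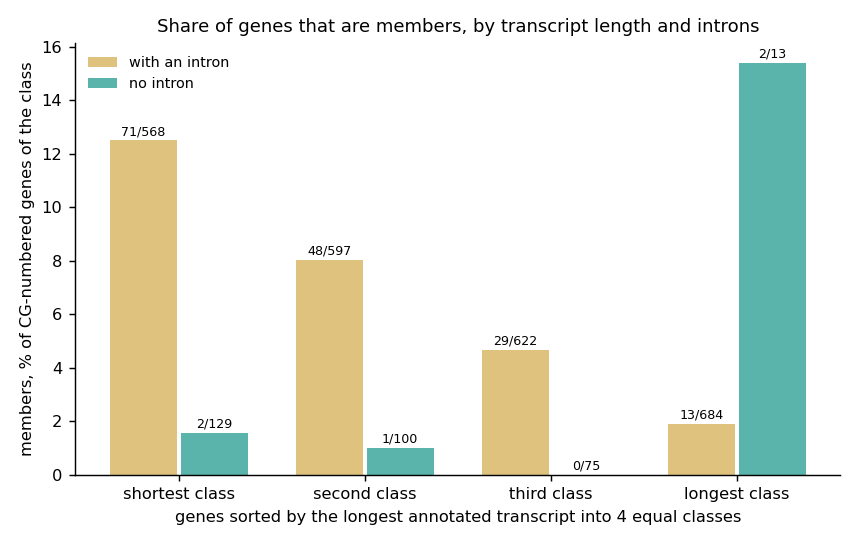
Share of CG-numbered genes that are members (vertical axis, %), in 4 classes by the longest annotated transcript and by whether the gene has an intron, with members over genes of the class printed on each bar. Among genes with an intron the share runs between 12.5% in the shortest and 1.90% in the longest class, and the tall bar at the right rests on 2 of 13 genes.

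Members lay on every major chromosome arm, with 43 on 2R, 43 on 3R, 37 on 3L, 23 on X and 20 on 2L. They were 7.73% of the genes that could enter on 2R, 6.56% on 3L, 6.04% on 3R, 4.41% on X and 4.01% on 2L. Another row of the tables overlapped 87 members (51.5%) and 44.1% of the other genes that could enter, so their levels may hold fragments of a second gene. The strand setting of the authors' counting is not given in the sources used here.

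Only 4 pairs of members lay within 1000 bases of each other. CG34200 (Tom6, -0.64 and -0.68) and CG7791 (-0.44 and -0.51) overlap by 13 bases on opposite strands. CG33170 (-1.28 and -0.99) and CG11137 (EMC4, -0.60 and -0.63) overlap by 48 bases, and CG5039 (-0.68 and -1.35) and CG4743 (Samc, a mitochondrial carrier, -0.43 and -0.64) by 288 bases, also on opposite strands. CG13551 (ATPIF1) and CG30414 lie 221 bases apart on the same strand. Fragments of these neighbours can be confused where they overlap, so the paired values are not independent.

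The authors' deposited tables hold values in both systems for 167 members and none for CG12788 and CG9960. All 167 were lower in both tables, which were made from the same libraries. Of these, 148 had an adjusted p under 0.05 in the authors' deposited neuroblast table, 79 in that of S2 cells and 74 in both. Both of the authors' log2 values were at or under -0.4 for 131 members. Per system, 153 members lay within 0.3 of the authors' deposited value. The widest gap in neuroblasts, noted after the values were seen, was that of CG16947, at 0.217 and 0.121 FPKM in barc RNAi and 2.08 and 1.88 FPKM in control neuroblasts, where the authors' deposited table gave -4.05 and the log2(FPKM + 1) scale -1.35.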

How the data were processed

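Per the labels' protocols, polyadenylated RNA was made into strand-specific libraries with dUTP. The authors deposited 1 table of FPKM per library. For each system the authors further deposited a comparison table with mean signal per group (normalised counts), the fold ratio of the means, its log2, a p-value and an adjusted p-value. The deposited neuroblast table gives control over barc RNAi, and its sign was turned here. The submitters' processing notes name HTSeq, DESeq, Cufflinks 1.3.0, TopHat 1.4.1 and BWA 0.6.1 without roles. Genome build: not given in the sources used here. No count per library was used, so limma 3.58.1 (R 4.3.3) with a trend was fitted to log2(FPKM + 1).

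Each fit took every gene that had the status OK and averaged 1 FPKM or more in its libraries, two-sided, with Benjamini-Hochberg adjusted p under 0.05 as the call. Implied fragments were computed from the FPKM divided by its distance to the deposited upper bound, multiplied by 2 and squared. Between 91.6% and 92.3% of values under 200 were within 0.02 of a whole number. The labels do not say that replicates were separate cultures or animals, so p-values measure the spread between libraries, which may be technical.

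The members, gene lists and tests were chosen with earlier results of these data known. Values in every library are given for the 8 members with the lowest sum of changes, the 3 lowest in each system and the highest control level in each. Changes alone are given for the 3 genes nearest the limit on each side and for members that lie together. The 6 members with the lowest p in the pair difference are given with their S2 libraries too, which goes beyond the rule set for naming. Pairing was checked by deviations from group means. Same-numbered S2 libraries correlated at 0.581, 0.588, 0.588 and 0.451, all over 0.1, so by that limit the numbers pair them. Differently numbered libraries of the same first number correlated as well, at 0.326 to 0.618, so the correlations show the first number rather than single pairs. The replicate block left each count of calls within 1.5 times. Gene identifiers matched RefSeq for all 169 members and the Ensembl annotation for 166. One member with a role is counted but not reported by name here. Alternatives are given in the closing section. Analyses used Python 3.11.15 with pandas 2.3.3.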

Additional observations from a re-analysis of the deposited data

Results flagged for a closer look

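In 2 of the 30 groups of 4 S2 libraries looked at, 1 library stood far from the other 3. Chance alone flags about 1 in 20 such groups. For CG3788, dsmCherry replicate 3 had 8.0 FPKM, against 6.79 to 6.91 FPKM in the other dsmCherry libraries. For CG2852, dsmCherry replicate 4 had 552 FPKM, against 724 to 751 FPKM in the others.

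The limma interaction described above called a difference in the effect of dsbarc between the S2 replicate pairs for 55 members, a count on which the choice of members bears. For the 6 with the lowest p the difference, replicates 3 and 4 minus replicates 1 and 2, was 2.22 for CG42394, 1.71 for CG17896, 1.68 for CG42514, 1.57 for CG12768, 1.09 for CG32278 and 1.16 for CG2678. In each of these the dsbarc level was higher in replicates 3 and 4, in both libraries of the pair. CG42394 alone of the 6 was also called between the pairs apart from treatment (2.78, SE 0.389, limma adjusted p = 0.0012). The cause of these differences was not tested.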

How the results depend on the processing

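By the rule, 169 genes were members. With values rescaled to a common sum per library (TPM) there were 112, with a limit of -0.3 there were 284 and with -0.5 there were 107, while leaving out 1 library gave between 150 and 192. With the authors' deposited log2 values there were 151, of which 131 were among the 169. Every member stayed lower in both systems with 0.1 added, under TPM and after quantile normalisation. Within replicates 3 and 4, 164 did. For the 10 members shown by library, the change kept its sign in all 220 recomputations, moving by more than the spread between replicates in 15. All members were chosen for low changes in these libraries, and most of these 10 were named for the lowest changes. The recomputations reuse the same libraries, so a kept sign was likely beforehand and is no independent check of the members. The 6 named pair differences kept their direction and call in all 84. Those 6 were picked for the lowest p in the same S2 libraries, so kept calls were likely beforehand and are no independent check of the 6. They say nothing about the other members.

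All calls follow limma. Neuroblast calls (2888, of which 1605 lower and 1283 higher) ran between 1847 and 2959 with 1 library left out, and were 208 in 1 fit over all 4 groups. S2 calls (2030, of which 1154 lower and 876 higher) ran between 1104 and 2513 with 1 library left out. They were 3496 with the first number as a block, 927 within replicates 3 and 4 and 5460 within replicates 1 and 2. Under the replicate block they were 2778 in S2 cells and 3158 in neuroblasts, where same-numbered libraries correlated at 0.0673 and are not shown to be paired. With that block, added after seeing the data, the pair difference called 69 members, where 25.5% of all genes were called. Without it 55 members were called, where 22.4% of all genes were. The block changed no call of the 6 named members, which were picked for the lowest p. With 1 library left out, members called ran between 15 and 112 for the pair difference, where 8.80% and 54.2% of all genes were called. For the pairs apart from treatment they ran between 17 and 59, where 14.9% and 38.8% of all genes were called.

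Scaling moved the balance of calls. Under TPM, neuroblast calls were 1039 lower and 2067 higher, S2 calls 809 lower and 934 higher, and calls between the pairs 1608 lower and 824 higher (989 and 1029 on the FPKM scale). TPM moved the median of all genes by 0.12 in S2 cells. After quantile normalisation the pair difference had 703 lower and 790 higher calls (492 and 1210 before). Control neuroblasts against dsmCherry cells then had 2508 lower and 3198 higher (3071 and 2834 before). The causes were not tested. At the lowest depth a member rested on 3 fragments, so changes of members under about 10 fragments are uncertain.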
